A study of Mus musculus with 12 samples.

Results

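The genes described here are 8 transcriptional regulators of bone-forming cells, Runx2, Sp7, Dlx3, Dlx5, Dlx6, Msx1, Atf4 and Cbfb. They were taken by name from a table of read counts for 23358 mouse genes, and all 8 of the 8 names were found. The samples were mRNA from the frontal bone of mice at postnatal day 3, dissected along with nasal bone and with 2 sutures, the coronal and the frontonasal. The tissue was digested with collagenase II and trypsin before the RNA was extracted. The 12 samples fell into 4 groups of 3. Wild type and heterozygous FGFR2C342Y/+ mice, a model of the human craniosynostosis Crouzon syndrome, were studied on a C57BL/6 and on a BALB/c strain background. The mutant receptor allele is carried by all 6 mutant samples and by none of the wild type samples, and the labels name no other treatment.

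The labels do not say whether each sample was 1 animal or a pool, and they give no sex. The p-values therefore measure only the spread between these samples, which may be in part technical. The sequencing run named in the labels differs between the strains and is the same for both genotypes of a strain, so strain and run cannot be told apart.

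Runx2 is the factor that commits mesenchymal cells to the osteoblast lineage. Its DNA binding is stabilised by its partner Cbfb. Sp7, also called osterix, acts after Runx2 and is needed for osteoblasts to mature. Dlx3, Dlx5 and Dlx6 are homeodomain proteins that act on osteoblast genes, Runx2 and Sp7 among them, and Dlx5 and Dlx6 lie side by side as a bigene pair. Msx1 is a homeodomain repressor that keeps cranial progenitors dividing and opposes Dlx proteins. Atf4 is a stress-responsive leucine zipper factor that drives amino acid import and osteocalcin expression in mature osteoblasts. Signalling from FGF receptors, Fgfr2 among them, acts on the same lineage in the skull sutures.

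Library size ranged from 27181658 to 46521546 counts, and every member was counted at least 278 times in every sample. Levels below are CPM, counts per 1000000 counts of a library, with library sizes adjusted by TMM factors, which correct for differences in composition. Markers of bone were present: each of the 8 osteoblast markers reached 1 CPM in at least 1 sample of every group. Osteoclast, chondrocyte, neutrophil, endothelium and suture mesenchyme markers did so too, so the tissue held several cell types, and their levels differed between the groups. The summed level of the 8 osteoblast markers was 66975 to 115266 CPM in C57BL/6 wild type, 128287 to 153571 in C57BL/6 mutants, 110940 to 122148 in BALB/c wild type and 109416 to 118258 in BALB/c mutants. Most of this sum is Col1a1, which averaged 89219 CPM in C57BL/6 wild type and 125588 CPM in C57BL/6 mutants. The lowest sum, 66975 CPM, was C57BL/6 wild type replicate 1. Summed surface epithelium markers ran from 125.1 to 308.0 CPM in C57BL/6 wild type and from 3.73 to 69.9 CPM in C57BL/6 mutants, with replicate 4 at the top, and stayed at or below 6.18 CPM in BALB/c, where the defining keratin Krt14 was at 0 in all 6 samples. In a bulk tissue, fewer cells of a type and less RNA per cell cannot be told apart. Counts from Y-linked genes were high in all 3 C57BL/6 wild type samples and in 1 sample of each other group.

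Fgfr2, the mutated gene, stood at 211.6, 251.6 and 283.2 CPM in C57BL/6 wild type and at 337.1, 370.0 and 375.0 CPM in C57BL/6 mutants. In BALB/c it stood at 269.1, 287.1 and 290.2 CPM in wild type and at 271.5, 310.3 and 318.1 CPM in mutants. The total level was higher in C57BL/6 mutants by 0.54 on the log2 scale (adjusted p = 0.00405, edgeR), and in BALB/c the difference of 0.09 did not pass. These counts do not separate the alleles, so they do not check the genotype labels.

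Per kilobase of the deposited transcript length, Atf4 and Sp7 were the most abundant of the 8 genes and Msx1 the least. Atf4 ranged over the 12 samples from 122.6 to 238.2 CPM per kilobase with a median of 170.3, and Sp7 from 88.8 to 186.8 with a median of 115.4. Cbfb had a median of 51.9, Runx2 of 44.0, Dlx5 of 39.0, Dlx6 of 19.8, Dlx3 of 17 and Msx1 of 6.26 CPM per kilobase. Atf4 ranked first in 11 of 12 samples, Sp7 ranked second in 11 and Msx1 ranked last in 12. Runx2 held the third, the fourth or the fifth place in 4 samples each, exchanging places with Cbfb and Dlx5. The highest level of a gene was between 1.44 times its lowest (Cbfb) and 2.92 times its lowest (Msx1).

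**Figure D1:**
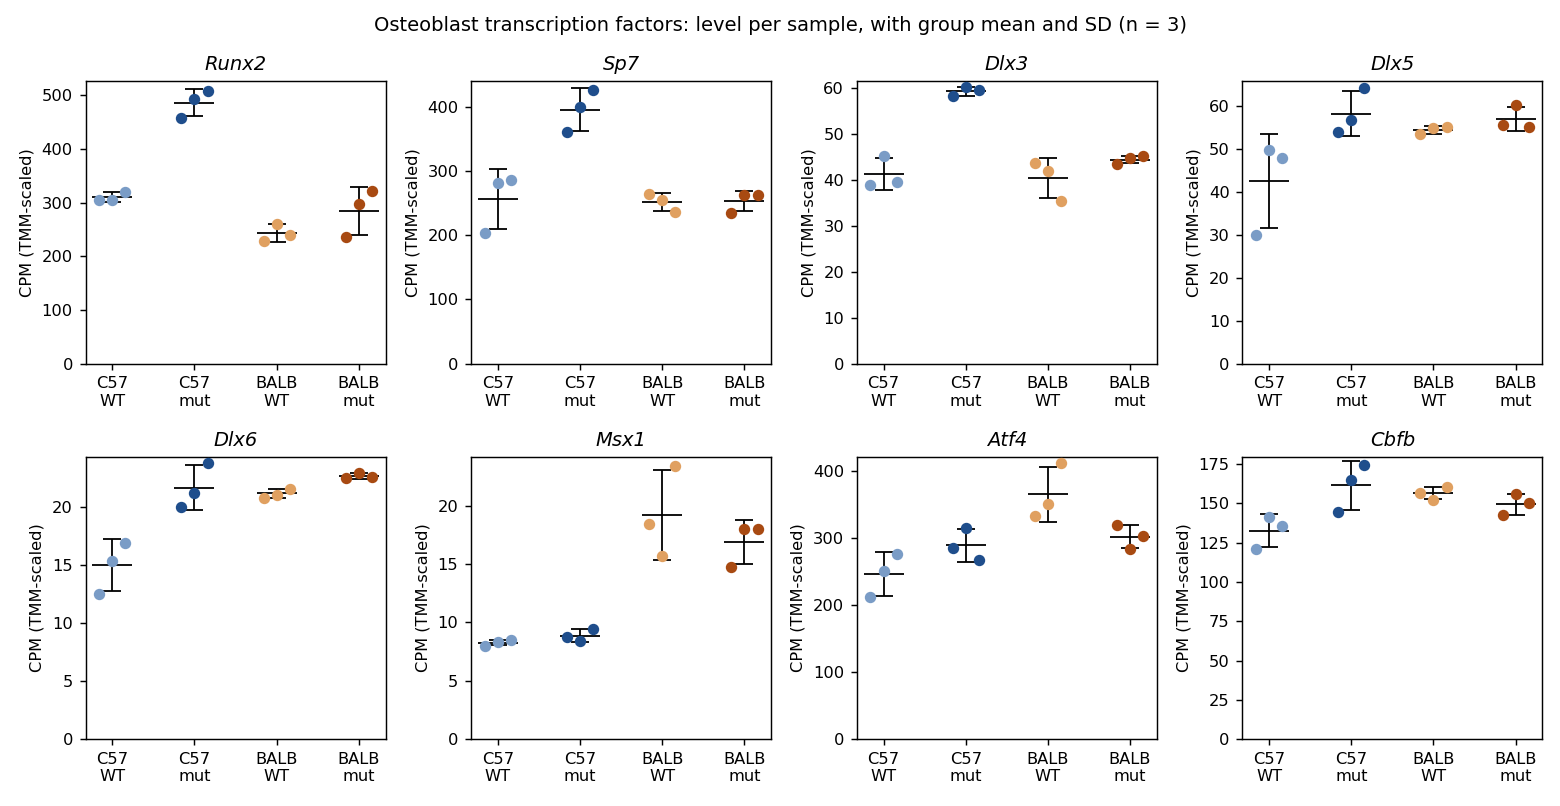
Level of each of the 8 genes in CPM (y axis, from 0) in every sample, by group (x axis, 3 samples each), with the group mean and SD as a bar. Runx2, Sp7 and Dlx3 stand highest in C57BL/6 mutants, with no overlap with another group, and Msx1 separates by strain, at 8.0 to 9.48 CPM in C57BL/6 and 14.7 to 23.4 CPM in BALB/c.

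In the deposited table (mm10 coordinates) Runx2 spans chr17:44604001-44814797 and overlaps Supt3h, which averaged 7.62 to 8.75 CPM in the groups. Sp7 lies at chr15:102357177-102366271 and Atf4 on the same chromosome at chr15:80255184-80257541. Dlx5 (chr6:6877805-6882068) and Dlx6 (chr6:6863334-6867970) are neighbours, and Dlx3 lies apart at chr11:95120117-95125291. Msx1 is at chr5:37820491-37824585, overlapping the antisense gene Msx1as, and Cbfb at chr8:105170674-105217988. Each of the 8 intervals overlaps the RefSeq gene of the same name.

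Promoter sequence from RefSeq (assembly GRCm38.p6) was matched for 4 of the 8 genes, Runx2, Cbfb, Msx1 and Atf4. These 4 are shown because they had an entry. In the C57BL/6 comparison described below, Runx2 and its partner Cbfb rose and Msx1 and Atf4 did not pass. Each is written 5′ to 3′ on the gene's strand, with capitals marking the motif letters found on either strand. Runx2 at chr17:44814690-44814719 (minus strand) is cut to the stretch around the match, and Msx1 at chr5:37824586-37824705 (minus strand), Atf4 at chr15:80255064-80255183 (plus strand) and Cbfb at chr8:105170554-105170673 (plus strand) are the 120 bases before the start.
Runx2: gtgaggtcacaaACCACAtgattctgtctc
Msx1: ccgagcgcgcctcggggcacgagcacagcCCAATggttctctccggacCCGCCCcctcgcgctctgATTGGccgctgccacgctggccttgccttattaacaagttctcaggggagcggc
Atf4: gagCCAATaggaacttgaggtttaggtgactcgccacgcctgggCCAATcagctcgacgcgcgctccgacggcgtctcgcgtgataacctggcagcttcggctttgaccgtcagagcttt
Cbfb: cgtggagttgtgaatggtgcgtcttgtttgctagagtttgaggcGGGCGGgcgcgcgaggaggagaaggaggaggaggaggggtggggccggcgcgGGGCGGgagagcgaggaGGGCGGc

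The 250 bases before the start were searched on both strands for 6 motifs. The core of the RUNX site, TGTGGT, was found once before Runx2, on the other strand at bases -80 to -75, and in 14% of 32851 mouse promoters. This Runx2 window overlaps by 170 bases an exon of longer Runx2 transcripts, so the match lies in transcribed sequence. CCAAT was found at 2 places each before Msx1 and Atf4 (33.8% of promoters hold it). The GC box GGGCGG was found at 1 place before Msx1 and at 4 before Cbfb, 3 of them within the sequence shown (32.7% of promoters). The homeodomain core TAATTA (4.8%), the ATF4 site TGATGCAA (0.8%) and TATAAA (12.4%) were not in these windows, and no matches overlapped. A match describes the letters only.

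The first comparison asked what the mutation did on the C57BL/6 background. Of the 8 genes, 6 rose in mutants and none fell: Runx2 by 1.57-fold, Sp7 by 1.54-fold, Dlx6 by 1.45-fold, Dlx3 by 1.44-fold, Dlx5 by 1.37-fold and Cbfb by 1.22-fold, although relative to bone matrix genes, as given below, none was called, the Dlx genes were near 0 and Cbfb was below 0. Among all 16190 genes tested 11.3% were called higher, 12.6% lower and 23.9% in either direction (edgeR quasi-likelihood test, Benjamini-Hochberg adjusted p below 0.05). Atf4 and Msx1 did not pass. The median log2 fold change of the 8 genes was 0.49, against -0.004 over all genes tested. The log2 fold change was above 0 for 8 of 8 genes and for 49.3% of all genes. In 6 of the 8 genes every mutant sample was above every wild type sample, a pattern seen in 19.7% of all genes.

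Runx2 was at 304.2, 305.2 and 320.1 CPM in C57BL/6 wild type and at 457.5, 493.1 and 507.7 CPM in C57BL/6 mutants. The groups were far apart, with a gap much wider than the spread within either. The log2 fold change was 0.65 (SE 0.101, adjusted p = 0.0016, edgeR). In BALB/c Runx2 was at 229.1, 260.7 and 240.1 CPM in wild type and at 235.3, 297.5 and 321.4 CPM in mutants. The BALB/c ranges overlapped, because mutant replicate 16 lay within the wild type range while the other mutants lay above it. The BALB/c log2 fold change of 0.23 (SE 0.1) did not pass (adjusted p = 0.404, edgeR), and it was 0.35 without mutant replicate 16 and 0.13 without mutant replicate 18.

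Cbfb, the non-DNA-binding partner of Runx2, moved less. It was at 120.8, 141.5 and 135.6 CPM in C57BL/6 wild type and at 144.4, 164.9 and 174.5 CPM in mutants. All 3 mutants exceeded all 3 wild types, but replicate 4 only narrowly. The log2 fold change was 0.28 (SE 0.0781, adjusted p = 0.0234, edgeR). In BALB/c Cbfb was at 156.7, 152.3 and 160.0 CPM in wild type and at 142.2, 155.8 and 149.9 CPM in mutants, a difference of -0.07 that did not pass. The ratio of Runx2 to Cbfb per kilobase, 0.984 in C57BL/6 wild type, was 1.27 in C57BL/6 mutants with no overlap between samples. It was 0.654 in BALB/c wild type and 0.796 in BALB/c mutants, where the ranges overlapped. With 3 samples against 3 the exact permutation test (two-sided) cannot go below 0.1, which the C57BL/6 ratio reached (0.2 after adjustment over 16 comparisons of 4 ratios).

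Sp7 was at 202.8, 281.7 and 285.7 CPM in C57BL/6 wild type and at 360.8, 399.3 and 426.6 CPM in mutants. Wild type replicate 1, the sample with the lowest summed osteoblast markers, was well below the other wild types, and all mutants were above all wild types. The log2 fold change was 0.62 (SE 0.118, adjusted p = 0.00448, edgeR). In BALB/c the levels were 264.3, 254.3 and 236.4 CPM in wild type and 234.6, 262.9 and 262.1 CPM in mutants. The BALB/c ranges nearly coincided, and the log2 fold change was 0.01 (SE 0.118, adjusted p = 0.995, edgeR). The ratio of Sp7 to Runx2 per kilobase was 2.48 in C57BL/6 wild type and 2.46 in C57BL/6 mutants, with overlapping samples (log2 difference -0.01). On the log2 scale the wild type ratios were 1.02, 1.49 and 1.44 and the mutant ratios 1.26, 1.3 and 1.35. Wild type replicate 1 thus lay below every mutant, and wild type replicates 2 and 3 lay above every mutant.

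Dlx3, a homeodomain factor of craniofacial bone and teeth, was at 38.8, 45.2 and 39.6 CPM in C57BL/6 wild type and at 58.1, 60.1 and 59.5 CPM in mutants. The mutants lay close together and clear of the wild types. Their log2 difference was 0.53 (SE 0.0787, adjusted p = 0.00136, edgeR). In BALB/c it was at 43.7, 41.9 and 35.4 CPM in wild type and at 43.5, 44.7 and 45.1 CPM in mutants. These ranges overlapped narrowly, and the log2 fold change of 0.14 did not pass (adjusted p = 0.547, edgeR). It was 0.05 without BALB/c wild type replicate 15 and 0.21 without replicate 13.

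Dlx5 and Dlx6, the neighbouring pair on chromosome 6, shifted together. Dlx5 was at 29.9, 49.8 and 47.8 CPM in C57BL/6 wild type and at 53.9, 56.7 and 64.1 CPM in mutants. Dlx6 was at 12.5, 15.4 and 16.9 CPM in wild type and at 20.0, 21.2 and 23.8 CPM in mutants. For both genes wild type replicate 1 was the lowest sample, and all mutants lay above all wild types. The log2 fold change was 0.45 for Dlx5 (SE 0.147, adjusted p = 0.0425, edgeR) and 0.53 for Dlx6 (SE 0.0993, adjusted p = 0.00398, edgeR). In BALB/c Dlx5 was at 53.4, 54.8 and 55.0 CPM in wild type and at 55.5, 60.2 and 55.2 CPM in mutants. BALB/c Dlx6 was at 20.8, 21.1 and 21.6 CPM in wild type and at 22.5, 23.0 and 22.6 CPM in mutants. Both genes were higher in every BALB/c mutant than in any BALB/c wild type, but by little, and neither log2 fold change (0.07 and 0.10) passed. Dlx5 exceeded Dlx6 per kilobase by 2.13, 2.05, 1.96 and 1.91 times in C57BL/6 wild type, C57BL/6 mutants, BALB/c wild type and BALB/c mutants. Dlx6 overlaps the antisense gene Dlx6as1, which rose with it in C57BL/6 mutants, from 6.45 ± 0.731 to 8.7 ± 0.851 CPM (SD, n = 3). The strand setting of the counting is not given in the sources used here, so reads of this pair may not be separated.

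Atf4 was at 211.5, 250 and 276.1 CPM in C57BL/6 wild type and at 284.4, 315.4 and 267.5 CPM in mutants. The ranges overlapped through mutant replicate 6, and the log2 fold change of 0.23 (SE 0.108) did not pass (adjusted p = 0.129, edgeR). In BALB/c Atf4 was at 333.1, 350.7 and 410.9 CPM in wild type and at 318.5, 284.0 and 303.2 CPM in mutants. Here all mutants were below all wild types, unlike the other members. The BALB/c log2 fold change of -0.27 (SE 0.108) had an unadjusted p of 0.026 and did not pass after adjustment (0.347, edgeR).

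Msx1, the repressor of the set, was at 8.0, 8.37 and 8.47 CPM in C57BL/6 wild type and at 8.72, 8.44 and 9.48 CPM in mutants. The ranges overlapped narrowly, and the log2 fold change was 0.10 (SE 0.135, adjusted p = 0.622, edgeR). In BALB/c it was at 18.4, 15.7 and 23.4 CPM in wild type and at 14.7, 18 and 18 CPM in mutants. Those ranges overlapped, and the log2 fold change of -0.18 did not pass (adjusted p = 0.655, edgeR). It was -0.30 without BALB/c wild type replicate 14, -0.01 without wild type replicate 15 and -0.09 without mutant replicate 16.

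In BALB/c, then, none of the 8 genes was called in either direction, where 0.136% of all genes were. At an unadjusted p below 0.05 (edgeR) there were 2, Runx2 (0.0432, higher in mutants) and Atf4 (0.026, lower). DESeq2 and limma-voom also called 0 of the 8, with 323 and 44 calls over all genes. Mutants lay wholly above wild types for 2 genes, Dlx5 and Dlx6 (9.93% of all genes), and wholly below for 1, Atf4 (10% of all genes). The median log2 fold change of the 8 genes was 0.04.

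**Figure D2:**
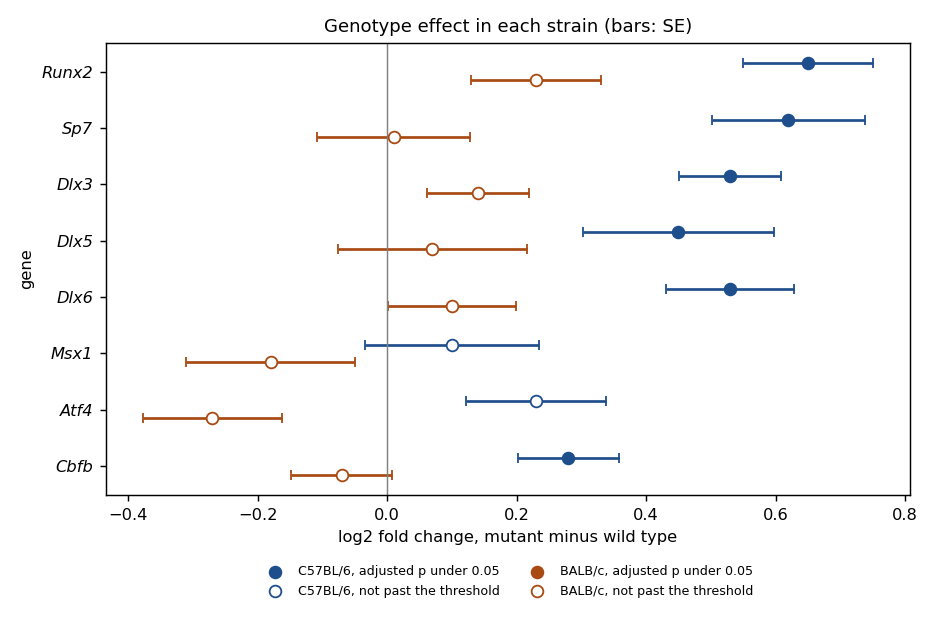
Log2 fold change, mutant over wild type, of each gene (y axis) in C57BL/6 and in BALB/c, with bars of 1 SE. Filled points passed an adjusted p below 0.05, which 6 genes did in C57BL/6, between 0.28 and 0.65, and none did in BALB/c, where the values lie between -0.27 and 0.23. The 6 C57BL/6 calls are those of TMM scaling, and relative to osteoblast matrix genes none passed.

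The difference between the strains was tested as an interaction, the BALB/c effect minus the C57BL/6 effect. It passed for 2 of 8 genes, Sp7 at -0.61 (SE 0.167, adjusted p = 0.0406, edgeR) and Dlx3 at -0.38 (SE 0.111, adjusted p = 0.049, edgeR), where 4.58% of all genes were called with a smaller effect in BALB/c and 10% in either direction. The value was below 0 for all 8 genes and above 0 for 50.8% of all genes. Relative to osteoblast matrix genes, a scaling that moved the median interaction of all genes to 0.67, none of the 8 passed: Sp7 was at -0.0002 (SE 0.173) and the others lay between 0.12 (Atf4) and 0.36 (Msx1), all below that median. For the other 6 genes the interaction lay between -0.51 (Atf4, adjusted p = 0.0545) and -0.28 (Msx1, adjusted p = 0.338) in edgeR. Leaving out 1 sample moved it between -0.40 and -0.11 for Msx1, -0.52 and -0.21 for Dlx5, and -0.52 and -0.29 for Runx2. The calls of Sp7 and Dlx3 were both close to the threshold: DESeq2 called 6 of the 8 genes, and leaving out 1 sample gave between 0 and 5. Calls over all genes moved too, from 1626 to 2686 with DESeq2. They were 3129 without C57BL/6 mutant replicate 4 and 624 without C57BL/6 mutant replicate 6. Sp7 passed in 4 of the 12 fits that left out a sample, losing its call without any BALB/c sample or without C57BL/6 mutant replicate 5 or 6 (interaction -0.55 to -0.66). Dlx3 passed in 3 of 12, those without C57BL/6 wild type replicate 2, C57BL/6 mutant replicate 4 or BALB/c wild type replicate 15, and was -0.32 to -0.40 in the others. With the summed Y-linked genes as a covariate neither gene passed, at -0.59 for Sp7 and -0.33 for Dlx3.

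How firm the C57BL/6 result was differed among the genes. Runx2, Sp7, Dlx3 and Dlx6 stayed called whichever of the 12 samples was left out. Cbfb lost it without C57BL/6 wild type replicate 1 (0.24), mutant replicate 5 (0.27) or mutant replicate 6 (0.22). Dlx5 lost it without mutant replicate 5 (0.47), mutant replicate 6 (0.38) or any 1 of the 6 BALB/c samples (0.45 to 0.46). With the summed Y-linked genes as a covariate Dlx5 lost its call too (0.48, adjusted p = 0.0654, edgeR), and the other 5 stayed called. Fitting the 6 C57BL/6 samples alone left 2 of the 6 calls, Runx2 and Dlx3. The log2 fold changes stayed at 0.62 for Sp7, 0.53 for Dlx6, 0.45 for Dlx5 and 0.28 for Cbfb, and the calls over all genes fell from 3867 to 1458. In the authors' deposited table the same 6 genes had a q-value below 0.05 in C57BL/6, with a log2 fold change of 0.63 for Runx2, 0.60 for Sp7, 0.49 for Dlx3, 0.42 for Dlx5, 0.50 for Dlx6 and 0.28 for Cbfb, and none did in BALB/c.

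The rise was also measured against the genes of the bone matrix, which osteoblasts make. Col1a1 and Col1a2, the chains of type I collagen, Sparc, a collagen-binding matrix protein, and Alpl, the phosphatase that starts mineralisation, were higher in C57BL/6 mutants by 0.47 to 0.54 on the log2 scale, and Col1a1 among them did not pass (adjusted p = 0.0594, edgeR). With library sizes set by these 4 genes the median of all genes in this comparison moved to -0.587, and none of the 8 regulators was called. On that scale Runx2 differed by 0.07 (SE 0.18, adjusted p = 0.743, edgeR), Sp7 by 0.09, Dlx3 by -0.04, Dlx5 by -0.06 and Dlx6 by -0.01. Cbfb was at -0.29, Atf4 at -0.31 and Msx1 at -0.47. On this scale Runx2, Sp7 and the 3 Dlx genes lay within 0.1 of the matrix genes, all 8 regulators lay above the shifted median of all genes, and Cbfb, Atf4 and Msx1 lay below the matrix genes. Col1a1 spread widely in C57BL/6 wild type, at 89219 ± 26200 CPM (SD). The osteoblast marker sum, mostly Col1a1, was 66975 CPM in replicate 1 against 114761 and 115266 CPM in replicates 2 and 3. Runx2 did not dip in replicate 1 (304.2 against 305.2 and 320.1 CPM), while Sp7, Dlx5 and Dlx6 were lowest there. The matrix scale was not fitted without replicate 1, so its part in these values was not tested. Scaled by total counts, which moved the median of all genes to -0.201, the log2 fold changes were 0.45 for Runx2, 0.44 for Sp7, 0.33 for Dlx3, 0.28 for Dlx5, 0.35 for Dlx6 and 0.09 for Cbfb, and 4 genes passed, Dlx5 (adjusted p = 0.0817, edgeR) and Cbfb (0.248) losing their call.

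**Figure D3:**
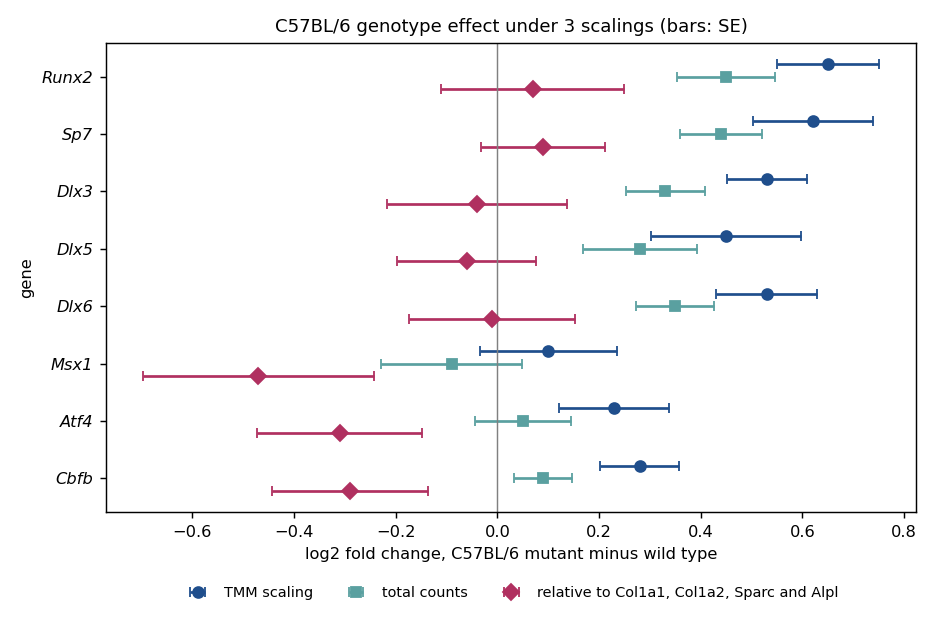
Log2 fold change, C57BL/6 mutant over wild type, of each gene (y axis) under TMM scaling, under total counts, and relative to the geometric mean of Col1a1, Col1a2, Sparc and Alpl. Runx2 stands at 0.65, 0.45 and 0.07 and Msx1 at 0.10, -0.09 and -0.47, and relative to the matrix genes Runx2, Sp7 and the Dlx genes lie within 1 SE of 0. The median of all genes moves to -0.201 under total counts and to -0.587 relative to the matrix genes. The matrix scale was not fitted without C57BL/6 wild type replicate 1, the sample with the lowest osteoblast marker sum.

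Markers of other cells moved with genotype in C57BL/6. Summed osteoclast markers (7 genes) were 3471 to 4240 CPM in wild type and 7311 to 8152 CPM in mutants. Summed chondrocyte markers (8 genes) were 5340 to 7683 CPM in wild type and 282.6 to 2901 CPM in mutants, with replicate 4 the highest mutant. Ciliated cell markers (8 genes) summed to 16 to 35.1 CPM in wild type and 4.7 to 10.3 CPM in mutants. Summed endothelium markers (6 genes) were 350.4 to 410.4 CPM in wild type and 431.3 to 515.5 CPM in mutants, and erythroid markers (6 genes) 425.1 to 576.5 and 161.6 to 199.1 CPM. Suture mesenchyme markers (6 genes, Twist1 and the osteoclast gene Ctsk among them) summed to 1573 to 1972 CPM in wild type and 3015 to 3324 CPM in mutants. None of these sums overlapped between genotypes. In BALB/c the erythroid sum was 751.1 to 1166 CPM in wild type and 1324 to 1627 CPM in mutants, and the neutrophil sum 550.4 to 649.1 and 770.9 to 844.7 CPM. Mutant replicate 16, the BALB/c mutant lowest in Runx2, was also high in skeletal muscle markers (8 genes), at 444.1 CPM against 29.9 and 6.2 CPM in the other mutants. The part of all these cells in the C57BL/6 rise of Runx2, Sp7, Cbfb and the Dlx genes was not tested beyond 1 fit with the ciliated sum as a covariate. The groups fix 83.5% of that covariate's variance, and with it none of the 8 genes and 0 of all genes were called in C57BL/6. Without mutant replicate 4, the mutant nearest to wild type in chondrocyte and epithelial markers, all 6 calls held, although leaving it out widens the marker gap between genotypes. Without wild type replicate 1 all but Cbfb held, the Dlx5 effect falling from 0.45 to 0.28.

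The lists of related genes were read from the same fit, in which 11.3% of all genes were called higher and 12.6% lower in C57BL/6 mutants and 0.136% were called in BALB/c. Of 22 osteoblast genes that act downstream, 16 rose in C57BL/6 mutants, 0 fell and 6 did not pass, with a median log2 fold change of 0.55 against -0.004 for all genes. Vdr, the vitamin D receptor, rose from 266.0 ± 17.2 to 544.6 ± 42.3 CPM (SD, n = 3), a log2 fold change of 1.03. Spp1, the matrix protein osteopontin, rose from 6120 ± 1200 to 11745 ± 338 CPM (0.94), and Tnfsf11, the osteoclast-inducing ligand RANKL, rose from 16.6 ± 3.11 to 28.9 ± 2.15 CPM (0.80). Summed osteoclast markers were 3471 to 4240 CPM in wild type and 7311 to 8152 CPM in the same mutants. The part of osteoclasts in the Spp1 rise was not tested. Bglap2, an osteocalcin gene, rose by 0.76, but its near-identical copies make its count uncertain. In BALB/c 0 of the 22 were called and the median was -0.07. The interaction passed for 10 of the 22, all with the smaller effect in BALB/c (4.58% of all genes), among them Vdr at -1.11 and Spp1 at -1.16. The matrix genes used as a scale above belong to this list.

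Among 23 other osteogenic factors 9 rose in C57BL/6 mutants, 1 fell and 13 did not pass (median 0.38). Klf10, a TGF-beta responsive factor, rose by 0.63 and Mef2c, a MADS-box factor, by 0.53 on the log2 scale. Sox11, a factor that is also abundant in immature neurons, fell by 1.78 on the log2 scale, from 67.6 ± 25.6 to 19.7 ± 12.8 CPM. The olfactory neuron markers were lower in the same mutants, at 129.9 to 217.0 CPM against 236.1 to 366.4 CPM in wild type. In BALB/c 0 of the 23 were called.

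Partners and repressors of Runx2 went both ways, with 5 of 22 higher, 4 lower and 13 not passing in C57BL/6 mutants (median 0.14). Sox9, the chondrocyte factor that represses Runx2 activity, fell by 1.09 on the log2 scale, from 61.6 ± 14.3 to 29.0 ± 8.99 CPM. The chondrocyte markers, Sox9 among them, summed to 5340 to 7683 CPM in wild type and 282.6 to 2901 CPM in the same mutants, and their part in this fall was not tested. The corepressor Tle1 fell by 0.67 and the pocket protein Rb1, a Runx2 coactivator, by 0.34. Twist1, a repressor of Runx2, rose by 0.45, from 67.2 ± 17.4 to 92.1 ± 5.68 CPM. Of 28 Atf4 target genes 3 rose, 4 fell and 21 did not pass (median 0.04), shares close to those of all genes. Atf5 fell from 132.1 ± 36.5 to 60.1 ± 28.7 CPM, Cebpg from 55.3 ± 12.9 to 27 ± 7.11 CPM and Trib3 from 4.46 ± 1.65 to 1.95 ± 1.1 CPM, while Nupr1 rose by 0.51. The Atf4 mRNA itself did not pass in this comparison. In BALB/c 0 of the 22 and 0 of the 28 were called.

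The remaining Dlx and Msx genes were scarce. Of 7 listed, 4 passed the filter on low counts: Msx2, Dlx4, Dlx1 and the antisense gene Dlx6as1. Dlx6as1 was the 1 gene called in C57BL/6 (0.43, adjusted p = 0.031, edgeR). Msx2, a homeodomain factor of the sutures, was at 4.75 ± 1.99 CPM in C57BL/6 wild type and 6.76 ± 1.73 CPM in mutants, which did not pass. Dlx4 averaged between 1.04 and 1.6 CPM in the groups. Dlx2, Msx3 and Dlx1as fell under the filter.

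**Figure D4:**
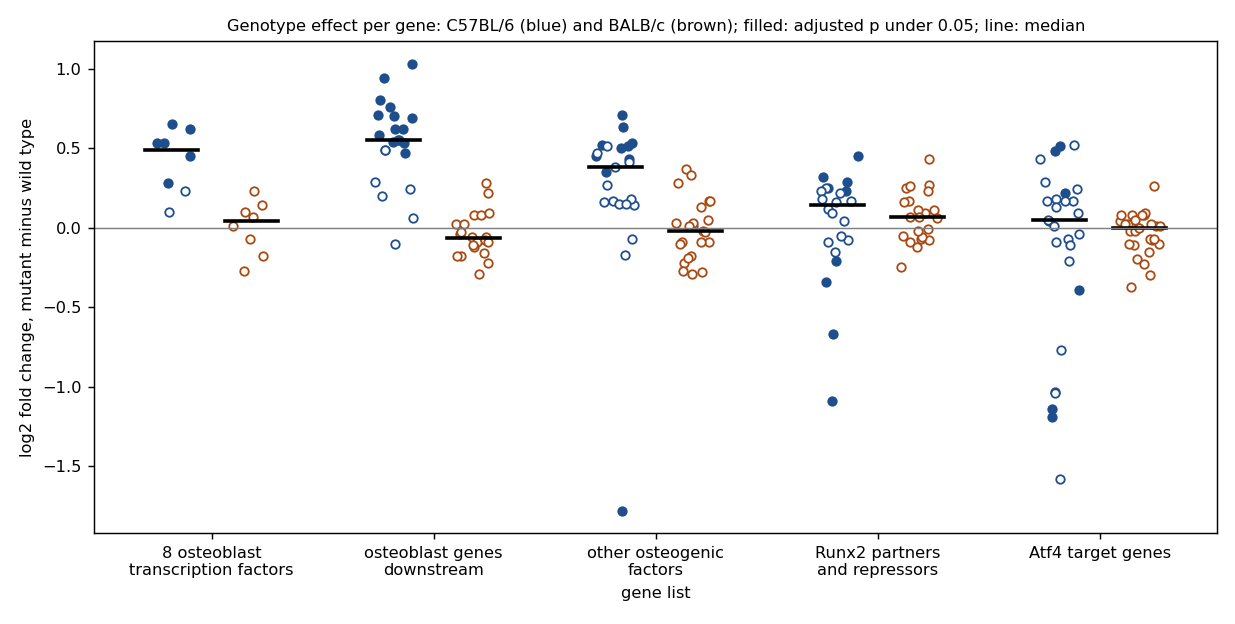
Log2 fold change, mutant over wild type (y axis), of the 8 genes and of every tested gene of 4 related lists in C57BL/6 and in BALB/c, with the median of each list as a line and filled points for an adjusted p below 0.05. The downstream osteoblast genes have a median of 0.55 in C57BL/6 and -0.07 in BALB/c, and the Atf4 target genes lie around 0 in both.

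The strains were then compared at the same genotype, with the limit that strain and sequencing run cannot be told apart. These contrasts use the same 12 samples as those above. Markers of other cells differed by strain in wild type with no overlap. In C57BL/6 and BALB/c wild type, summed chondrocyte markers were 5340 to 7683 and 623.2 to 1824 CPM, and olfactory neuron markers 236.1 to 366.4 and 80.9 to 85.4 CPM. Erythroid markers were 425.1 to 576.5 and 751.1 to 1166 CPM, neutrophil markers (7 genes) 215.2 to 385.8 and 550.4 to 649.1 CPM, and suture mesenchyme markers 1573 to 1972 and 2440 to 2748 CPM. In C57BL/6 and BALB/c mutants, osteoblast sums were 128287 to 153571 and 109416 to 118258 CPM, and osteoclast sums 7311 to 8152 and 4355 to 4984 CPM. Erythroid sums were 161.6 to 199.1 and 1324 to 1627 CPM, and neutrophil sums 109.9 to 244.1 and 770.9 to 844.7 CPM. Suture mesenchyme sums were 3015 to 3324 and 2390 to 2714 CPM. Between mutants the chondrocyte, endothelium, ciliated, epithelium and muscle sums overlapped. The part of these cells in the strain differences of the 8 genes was not tested beyond the ciliated covariate. In wild type, 4 of the 8 genes were higher in BALB/c than in C57BL/6 (Msx1, Atf4, Dlx6 and Cbfb) and 1 was lower (Runx2), where 22.8% of all genes were called higher, 25.6% lower and 48.5% in either direction. Between mutants, 1 gene was higher in BALB/c (Msx1) and 3 were lower (Runx2, Sp7 and Dlx3), where 18% of all genes were called higher, 18.9% lower and 36.9% in either direction. Without overlap of samples, 5 genes were higher and 1 lower in BALB/c wild type (27.3% and 30.1% of all genes), and 1 was higher and 3 lower in BALB/c mutants (25.4% and 24.8%). The 8 were not tested as a set.

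Msx1 gave the widest strain difference of the 8 genes. Its 6 BALB/c samples, 14.7 to 23.4 CPM, all lay above its 6 C57BL/6 samples, 8.0 to 9.48 CPM. BALB/c exceeded C57BL/6 by 2.32-fold in wild type (log2 1.21, SE 0.135, adjusted p = 4.13e-05, edgeR) and by 1.9-fold in mutants (log2 0.93, SE 0.134, adjusted p = 0.000258, edgeR). The call held in 12 of 12 fits without 1 sample in each genotype, and in wild type it was lost with the ciliated covariate (0.95, adjusted p = 0.0645, edgeR). Msx1as, the antisense gene that overlaps Msx1, was at 1.4 ± 0.236, 1.31 ± 0.346, 2.41 ± 0.397 and 1.85 ± 0.671 CPM (SD, n = 3) in C57BL/6 wild type, C57BL/6 mutants, BALB/c wild type and BALB/c mutants. Msx2 was also higher in BALB/c wild type (10.8 ± 1.79 CPM, log2 1.19, adjusted p = 0.00502, edgeR), and its difference of 0.46 between mutants did not pass. The ratio of Msx1 to Dlx5 per kilobase was 0.145 in C57BL/6 wild type and 0.111 in C57BL/6 mutants, against 0.253 in BALB/c wild type and 0.215 in BALB/c mutants. BALB/c and C57BL/6 samples did not overlap in this ratio at either genotype.

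Runx2 differed the opposite way. It was lower in BALB/c by 0.35 on the log2 scale in wild type (SE 0.1, adjusted p = 0.0133, edgeR) and by 0.77 between mutants (SE 0.101, adjusted p = 0.000133, edgeR), with no overlap of samples at either genotype. In wild type the call was lost without BALB/c replicate 13 (-0.31). Its group means fell in the order C57BL/6 mutant 486.1 ± 25.8, C57BL/6 wild type 309.8 ± 8.92, BALB/c mutant 284.8 ± 44.4 and BALB/c wild type 243.3 ± 16 CPM. In that order only the C57BL/6 mutants were clear of their neighbour, and the samples of the other neighbouring groups overlapped. Sp7 and Dlx3 were lower in BALB/c mutants than in C57BL/6 mutants, with log2 differences of -0.64 and -0.41, and the wild type difference of -0.03 for each did not pass. Relative to the matrix genes, which moved the median of all genes to 0.406 in this contrast, the mutant differences of Runx2 (-0.36), Sp7 (-0.23) and Dlx3 (-0.0025) did not pass either. Their order had 1 clear step as well, under the C57BL/6 mutants at 395.6 ± 33.1 CPM for Sp7 and 59.2 ± 1.02 CPM for Dlx3.

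Dlx6, Cbfb and Atf4 were higher in BALB/c wild type than in C57BL/6 wild type, by 0.50, 0.24 and 0.57 on the log2 scale (adjusted p = 0.00174, 0.0252 and 0.0013, edgeR). Between mutants the same differences were 0.07, -0.11 and 0.06, and none passed. Relative to the matrix genes, which moved the median of all genes to -0.253 here, none of the 3 passed, with Dlx6 at 0.30, Atf4 at 0.36 and Cbfb at 0.0093. Cbfb also lost its call under total counts (0.13) and with the Y-linked covariate (0.26, adjusted p = 0.0506, edgeR). With the ciliated covariate none of the 3 passed, with Dlx6 at 0.09, Atf4 at 0.32 and Cbfb at -0.18. That covariate lowered the calls over all genes from 7847 to 1184. For Dlx6 the C57BL/6 wild types, at 15 ± 2.24 CPM, stood below the other groups, whose means were 21.2 to 22.7 CPM. Of those groups the C57BL/6 mutants overlapped both BALB/c groups, and the BALB/c mutants lay above the BALB/c wild types. Cbfb was likewise lowest in C57BL/6 wild type, at 132.6 ± 10.6 CPM, and its call was lost without C57BL/6 wild type replicate 1 (0.18), BALB/c wild type replicate 13 (0.23) or replicate 15 (0.22). For Atf4 it was BALB/c wild type, at 364.9 ± 40.8 CPM, that stood above the others. Dlx5 followed Dlx6 with a wild type difference of 0.36 that did not pass in edgeR (adjusted p = 0.0638) and passed in DESeq2 (0.34, adjusted p = 0.045) and limma-voom (0.40, adjusted p = 0.041). It depended on single C57BL/6 wild type samples: it was 0.16 without replicate 1, and passed without replicate 2 (0.49) or 3 (0.45).

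**Figure D5:**
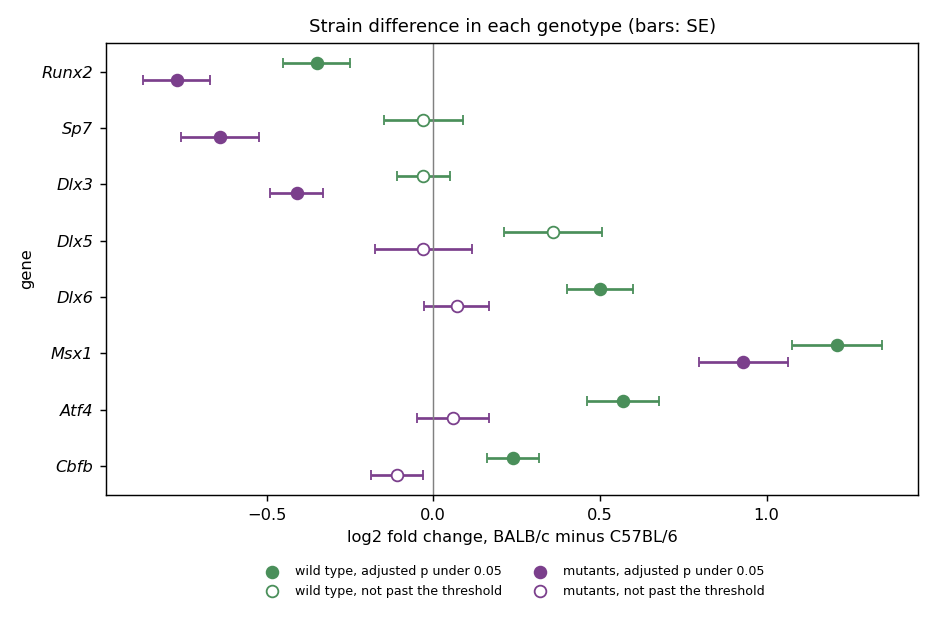
Log2 fold change, BALB/c over C57BL/6, of each gene (y axis) in wild type and in mutants, with bars of 1 SE and filled points for an adjusted p below 0.05. Msx1 is above 0 at both genotypes (1.21 and 0.93) and Runx2 below 0 at both (-0.35 and -0.77), while Sp7 and Dlx3 depart from 0 in mutants.

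Related genes were read in the same contrasts, where 48.5% of all genes were called in wild type and 36.9% between mutants. Of the downstream osteoblast genes 10 of 22 were higher and 1 lower in BALB/c wild type, and between mutants 4 were higher and 9 lower. Bglap, the osteocalcin gene, was at 220.8 ± 50 CPM in C57BL/6 wild type and 535.0 ± 23.6 CPM in BALB/c wild type (SD, n = 3), with the same uncertainty from near-identical copies. Among Runx2 partners and repressors 10 of 22 were lower in BALB/c wild type, such as the deacetylase Hdac4 (20.7 ± 2.12 against 10.2 ± 1.63 CPM) and the acetyltransferase Myst3, now called Kat6a (104.3 ± 3.68 against 54.1 ± 2.88 CPM), and 5 were higher. Between mutants 1 of the 22 was higher and 8 were lower. Among the other osteogenic factors 7 of 23 were higher in BALB/c wild type, Cebpd by 1.54 and Jund by 1.41 on the log2 scale, and 3 were lower, with the largest change of the list in Sox11 at -2.40. Between mutants 3 of the 23 were higher and 8 lower. Of the Atf4 target genes 7 of 28 were higher and 8 lower in BALB/c wild type, where Atf4 itself was higher, and 2 were higher and 2 lower between mutants.

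Within the set, the patterns over the 12 samples were compared as the root mean square difference of log2 CPM after centring each gene. Dlx5 and Dlx6 were the most alike at 0.109, then Sp7 and Dlx3 at 0.139, and Runx2 and Msx1 were the least alike at 0.857. Outside the set, among genes averaging at least 10 CPM, Tep1 (0.0798) and Ptpn13 (0.0802) were near Runx2. Near Sp7 were S1pr1 (0.0644) and Sec16b (0.0875), and nearest to Dlx3 were Pik3r1, Rasa3 and Pdgfb. Dlx5 was nearest to Adamts2, Srpx2 and Kazald1, and Dlx6 to Glis2 (0.06), Adamts5 and Tgfb1. Cbfb lay nearest to Rxra (0.0341), Laptm4a and Ergic3, and Atf4 to Rnd3, Polr3d and Brd2. Msx1 had the most distant nearest gene, Rps24 at 0.119, followed by Rps19 and Klf2. These values describe the 12 samples, which share runs and differ in cell makeup. The genes also vary to different extents, since Cbfb deviated from its own mean by 0.134 and Msx1 by 0.549 on the same measure.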

How the data were processed

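Counts per gene were deposited by the authors for 12 mRNA libraries, with RPKM values and a table of comparisons (log2 fold change, p-value, q-value). The submitters' processing notes name mm10, bcl2fastq, TopHat2 2.0.6, HTSeq and DESeq2, without their roles. The annotation and strand setting are not given in the sources used here. All deposited counts are even numbers, and counts halved were tried as an alternative. RPKM served only to check the order of levels, which agreed in 12 of 12 samples.

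Counts were fitted with edgeR 4.0.16 (R 4.3.3; quasi-likelihood, TMM, filterByExpr with a minimum count of 10 and total of 15) as 4 group means over all 12 samples, leaving 16190 genes. Adjustment was Benjamini-Hochberg over all of them. The 8 genes and the lists were chosen with earlier results of these data known. From each list, up to 4 called genes of largest change averaging at least 1 CPM are named. Some genes that this rule or the comparison of patterns picks are not reported here. SEs follow from the test statistic. The prior count for log2 CPM was 2. Scripts were tested on simulated data. Alternatives were DESeq2 1.42.0, limma-voom (limma 3.58.1), other scalings, no filter, 2 covariates, subsets and leaving out each sample.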

Additional observations from a re-analysis of the deposited data

Results flagged for a closer look

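The effect of the mutation differed between the strain backgrounds for 2 of the 8 genes by a test of the difference itself (edgeR interaction term, adjusted over all genes). Of all genes, 10% passed this test in either direction and 4.58% with a value below 0, the direction of these 2. For Sp7 the BALB/c effect minus the C57BL/6 effect was -0.61 on the log2 scale, with mutants higher in 3 of 3 C57BL/6 samples than any wild type and overlapping ranges in BALB/c. For Dlx3 it was -0.38, with the same picture. With each of the 12 samples dropped in turn, Sp7 no longer passed in 8 cases and Dlx3 in 9. With the Y-linked covariate neither passed, Sp7 at -0.59 (adjusted p = 0.0673, edgeR) and Dlx3 at -0.33 (adjusted p = 0.0803, edgeR). Relative to the bone matrix genes, where the median of all genes was 0.67, the value was -0.0002 for Sp7 and 0.27 for Dlx3, and neither passed. Under total counts, where that median was 0.238, the Dlx3 value was -0.16, and it was -0.25 with the ciliated covariate, and for Sp7 that covariate gave -0.08; none of these passed. The cause of the difference was not tested.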

How the results depend on the processing

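No paired analysis was possible because the groups share no replicate numbers. The count of the 8 genes called in C57BL/6 mutants, 6, became 0 relative to the matrix genes, 0 with the ciliated covariate (where 0 of all genes were called) and 2 with only the 6 samples compared; leaving out 1 sample gave 4 to 6. The interaction count, 2, was 6 with DESeq2 and 1 with RLE factors, total counts, no filter or halved counts. It was 0 relative to the matrix genes or with the Y-linked or ciliated covariate. Leaving out 1 sample gave 0 to 5, with 5 without C57BL/6 mutant replicate 4. Over all genes the interaction calls, 1626, were 2686 with DESeq2, 1564 relative to the matrix genes and 1169 with the Y-linked covariate. They were 5 with the ciliated covariate, 3129 without C57BL/6 mutant replicate 4 and 624 without C57BL/6 mutant replicate 6. With the Y-linked covariate the C57BL/6 count was 5 and with total counts 4. The wild type strain count, 5, was 6 with DESeq2 and limma-voom, 4 with total counts or the Y-linked covariate, 2 relative to the matrix genes (Runx2 and Msx1) and 0 with the ciliated covariate, and 3 to 6 with 1 sample left out. Over all genes the wild type strain calls, 7847, were 3725 relative to the matrix genes and 1184 with the ciliated covariate. The BALB/c genotype count, 0, was the same under every alternative run and every sample left out (0 to 0). Few genes of any kind were called in these BALB/c fits, from 0 relative to the matrix genes to 323 with DESeq2. The strain count between mutants stayed at 4 (4 to 4 with 1 sample left out), but relative to the matrix genes it held other genes: Runx2 (-0.36), Sp7 (-0.23) and Dlx3 (-0.0025) lost their call, and Dlx5 (0.38), Dlx6 (0.48) and Atf4 (0.48) gained one.

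The matrix gene scaling moved the median of all genes to -0.587 (C57BL/6 effect), 0.67 (interaction), -0.253 (strain, wild type) and 0.406 (strain, mutants), so a change of sign under it follows that shift, and many of the values below lie within 1 SE of 0. Signs differed from those of TMM scaling as follows. Relative to the matrix genes the C57BL/6 effect was -0.04 for Dlx3, -0.06 for Dlx5, -0.01 for Dlx6, -0.47 for Msx1, -0.31 for Atf4 and -0.29 for Cbfb, and with total counts -0.09 for Msx1. With the ciliated covariate it was -0.19 for Dlx5, -0.15 for Msx1, -0.0012 for Atf4 and -0.11 for Cbfb. The BALB/c effect of Cbfb was 0.01 relative to the matrix genes. The interaction relative to them was 0.23 for Runx2, 0.27 for Dlx3, 0.2 for Dlx5, 0.19 for Dlx6, 0.36 for Msx1, 0.12 for Atf4 and 0.3 for Cbfb, and with the ciliated covariate 0.28 for Dlx5 and 0.06 for Cbfb. That covariate turned the wild type strain difference to -0.33 for Dlx5 and -0.18 for Cbfb. Between mutants, total counts gave 0.09 for Dlx5 and 0.0081 for Cbfb, and the matrix genes 0.38 and 0.31. Leaving out 1 sample moved Sp7 from -0.03 to 0.07 (BALB/c effect) and from -0.17 to 0.06 (wild type strain difference), Dlx3 from -0.09 to 0.06 (wild type strain difference) and Dlx5 from -0.08 to 0.05 (strain difference between mutants). The cause of these changes was not tested.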
